A study of Rattus norvegicus with 12 samples.

Results

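Kupffer cell and macrophage markers in the liver of Long Evans Cinnamon (LEC) rats were followed as a set of 10 genes: Cd5l, Marco, Clec4f, Cd163, Vsig4, Cd68, Cd14, Lyz2, C1qa and C1qb. Each is read through the probe set listed for its symbol in the platform annotation, or through the brightest of several by the mean of the 12 arrays. Of the 10 genes, 8 were measured among 14217 genes in all, and Marco and Vsig4 have no probe set listed here. The 3 measured genes counted as resident Kupffer cell genes were Cd5l, Clec4f and Cd163, and the 5 counted as shared by macrophages and monocytes were Cd68, Cd14, Lyz2, C1qa and C1qb.

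Kupffer cells are the macrophages that live in the liver sinusoids, where they take up bacteria, endotoxin, dying red blood cells and cell debris from the portal blood. They are maintained largely by self-renewal and keep a gene programme set by the liver niche, including signals from hepatocytes, stellate cells and sinusoidal endothelium. Macrophages that enter the liver from circulating monocytes share the general phagocyte genes but at first lack this resident programme.

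Liver RNA was read on 12 Affymetrix Rat Expression 230 2.0 arrays. LEC rats (LEC/Crj) lack a working copper transporter, Atp7b, in all their cells, store copper in hepatocytes, and pass through hepatitis to liver cancer. The groups were LEC tumor at 67 weeks (4 arrays), LEC nontumor liver adjacent to tumor at 67 weeks (4 arrays), LEC liver at 4, 26 and 39 weeks (1 array each) and liver of Long Evans Agouti (LEA) rats, the control strain, at 67 weeks (1 array). The labels name no treatment, and all rats are labelled as males kept specific pathogen-free. Of 8 paired specimens, RNA of 2 was mixed for each tumor and each nontumor array, and each of the other arrays was a pool of an unstated number of rats. With paired specimens, tumor and nontumor arrays can hold tissue of the same rats, but the sources do not say which arrays match. Nor do they say whether the other pools had rats in common. The main test did not use the pairing, and the p-values cover no more than the spread among these samples. Levels are log2 values made by the authors with RMA, differences are given on the same log2 scale with limma's standard error, and called means an adjusted p (Benjamini-Hochberg over 31042 probe sets) under 0.05. Levels are compared only within a probe set.

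Array medians lay between 7.39 and 7.51. The arrays labelled 26 and 39 weeks stood apart from the other 10 in sex-linked genes, although all 12 carry the label male. Xist, transcribed from the inactive X chromosome, had levels of 5.27 and 5.67 there, against a range of 11.36 to 13.12 elsewhere. The Y-linked gene Eif2s3y had levels of 8.90 and 8.18 there, against a range of 3.65 to 3.81 elsewhere. High Xist and low Eif2s3y on the other 10 arrays go against the male label, which the arrays labelled 26 and 39 weeks match. All groups of the 3 tested comparisons are among those 10 arrays. The cause was not tested. Every comparison of an array labelled 26 or 39 weeks with one labelled 4 or 67 weeks therefore also crosses this divide, and age and the divide cannot be told apart there. Leaving both arrays out changed no call of a member in the 3 tested comparisons.

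The sequences just upstream of the genes are shown because the resident and the shared members moved differently in the tumors and because macrophage genes are widely described as targets of the factors PU.1 and Maf. They cover 250 bases before the gene start in RefSeq's GRCr8 assembly, 5′ to 3′ on the strand of the gene. Cd5l lies at chr2:175088665-175088914 (plus strand), Clec4f at chr4:117696408-117696657 (minus), Cd163 at chr4:158770524-158770773 (plus), Lyz2 at chr7:54798012-54798261 (minus), C1qa at chr5:154419934-154420183 (minus) and C1qb at chr5:154407828-154408077 (minus). Capitals mark GAGGAA or TTCCTC (a PU.1 core on either strand) and TGCTGA or TCAGCA (a Maf half-site on either strand), and no match of one overlaps a match of the other.
Cd5l: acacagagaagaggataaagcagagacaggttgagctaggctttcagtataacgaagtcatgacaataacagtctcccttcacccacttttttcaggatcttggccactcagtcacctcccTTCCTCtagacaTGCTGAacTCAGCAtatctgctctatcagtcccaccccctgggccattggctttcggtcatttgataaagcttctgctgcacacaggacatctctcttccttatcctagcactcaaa
Clec4f: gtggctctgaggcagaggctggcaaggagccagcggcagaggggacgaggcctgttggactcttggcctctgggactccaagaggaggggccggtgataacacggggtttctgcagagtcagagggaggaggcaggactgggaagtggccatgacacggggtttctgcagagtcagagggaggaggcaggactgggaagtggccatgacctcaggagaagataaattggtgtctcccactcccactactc
Cd163: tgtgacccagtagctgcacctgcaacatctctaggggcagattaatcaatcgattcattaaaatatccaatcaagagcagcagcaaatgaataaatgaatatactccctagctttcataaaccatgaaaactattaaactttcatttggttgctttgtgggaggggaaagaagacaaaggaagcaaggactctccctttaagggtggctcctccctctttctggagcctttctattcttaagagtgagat
Lyz2: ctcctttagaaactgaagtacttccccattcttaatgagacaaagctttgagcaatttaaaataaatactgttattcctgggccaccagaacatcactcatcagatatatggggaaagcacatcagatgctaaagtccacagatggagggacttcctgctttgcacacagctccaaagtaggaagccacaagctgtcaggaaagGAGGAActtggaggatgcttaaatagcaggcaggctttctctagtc
C1qa: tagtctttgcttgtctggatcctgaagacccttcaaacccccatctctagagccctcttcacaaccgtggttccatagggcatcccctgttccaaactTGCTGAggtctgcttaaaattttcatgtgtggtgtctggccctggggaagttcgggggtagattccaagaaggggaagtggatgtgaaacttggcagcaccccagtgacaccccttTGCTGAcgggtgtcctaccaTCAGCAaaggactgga
C1qb: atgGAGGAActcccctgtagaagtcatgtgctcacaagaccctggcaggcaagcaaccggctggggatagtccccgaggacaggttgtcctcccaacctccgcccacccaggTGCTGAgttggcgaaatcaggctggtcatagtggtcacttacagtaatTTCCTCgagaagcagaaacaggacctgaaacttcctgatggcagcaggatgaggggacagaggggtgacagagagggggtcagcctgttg
The PU.1 core was found before 5 of the 8 measured members and in 23.3% of 33469 rat promoters of this length (7812). The 5 were Cd5l, Lyz2 and C1qb, and also Cd68 (1 match) and Cd14 (2 matches), whose sequences are not printed here. The Maf half-site was found before 3 of the 8, with 3 matches at C1qa, 2 at Cd5l and 1 at C1qb, and in 15.1% of the same promoters (5067). Clec4f and Cd163 held neither. These are matches of letters in a window, not binding sites.

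In LEC tumors at 67 weeks, the 3 resident Kupffer cell genes were lower than in the adjacent nontumor liver, while 3 of the 5 shared genes were higher. Cd5l and Clec4f had the larger changes, at 28.2-fold and 14.4-fold lower, Cd163 was 2.23-fold lower, and Lyz2 was 4.14-fold higher. Cd14 and C1qa were higher by less than 2-fold, and Cd68 and C1qb did not pass the threshold. So 6 of 8 measured members were called, 3 higher and 3 lower, against a background of 67.9% of all genes called in this comparison (38.8% higher and 29.2% lower). The groups did not overlap for the same number of members, 6 of 8, against 63.8% of all genes. With so large a background, the counts themselves do not set the members apart, and the sizes and directions below are what the data show of them. The median difference was -3.85 for the 3 resident genes and 0.45 for the 5 shared genes, against 0.07 for all genes. In tissue RNA, fewer cells of a type and less RNA per cell cannot be told apart.

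**Figure D1:**
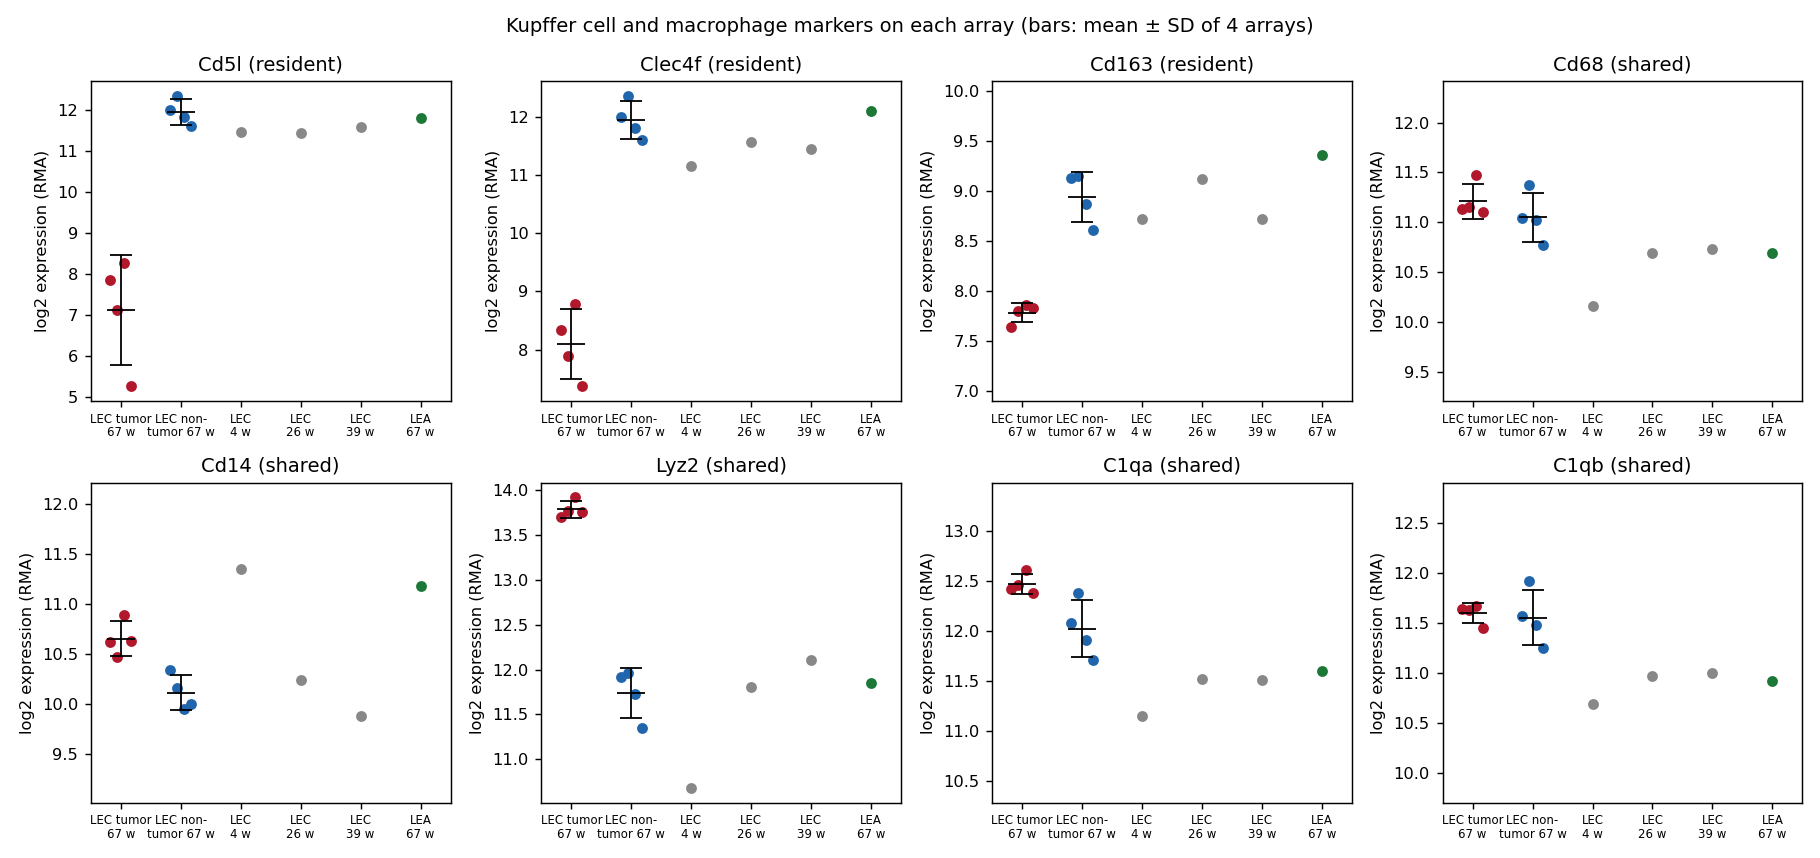
Log2 expression (RMA) of the 8 measured markers on each of the 12 arrays, with the mean ± SD of the 4 tumor and 4 nontumor arrays and single points for LEC at 4, 26 and 39 weeks and LEA at 67 weeks. Cd5l, Clec4f and Cd163 are lower on all 4 tumor arrays than on every other array, and Lyz2 is higher on all 4 tumor arrays than on every other array.

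Cd5l encodes a scavenger protein secreted by tissue macrophages, also known as AIM. It was at 7.86, 7.12, 8.28 and 5.27 on tumor arrays 1 to 4, against 11.99, 12.35, 11.84 and 11.61 on nontumor arrays 1 to 4. The groups were far apart, and tumor array 4, the lowest, was no brighter than control probe sets for bacterial RNA that the samples lack, which reached 5.67 on the tumor arrays (called the range of absent RNA below). Cd5l averaged 7.13 ± 1.33 in tumor and 11.95 ± 0.31 in nontumor liver (SD, n = 4 each). The difference of -4.82 ± 0.57 (limma, adjusted p = 1.3e-04) was one of the lowest, with 1 of the 14217 genes having a lower one. Without tumor array 4 the difference was -4.19. A second, dimmer Cd5l probe set gave -2.49 ± 0.09 (limma, adjusted p = 6.87e-07), with all 4 tumor values within the range of absent RNA, so that its difference is bounded by that range.

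Clec4f encodes a C-type lectin that in rodents is made almost only by Kupffer cells. It was at 8.34, 7.89, 8.79 and 7.37 on the tumor arrays, against 12.00, 12.36, 11.81 and 11.60 on the nontumor arrays. All 4 tumor values were above the range of absent RNA, and none came near a nontumor value. The means were 8.10 ± 0.61 in tumor and 11.94 ± 0.32 in nontumor liver (SD, n = 4 each), a difference of -3.85 ± 0.29 (limma, adjusted p = 1.26e-05), and 39 genes had a lower one. Cd163, the receptor that clears haemoglobin bound to haptoglobin, was at 7.64, 7.80, 7.86 and 7.83 on the tumor arrays, against 9.13, 9.15, 8.87 and 8.61 on the nontumor arrays. The tumor values lay close together and below every nontumor value. The difference was -1.15 ± 0.13 (limma, adjusted p = 8.49e-05), smaller than those of Cd5l and Clec4f.

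Among the shared genes, Lyz2, the lysozyme of macrophages and other myeloid cells, had the largest difference. It was at 13.70, 13.77, 13.92 and 13.76 on the tumor arrays, against 11.92, 11.96, 11.73 and 11.35 on the nontumor arrays. The groups were separate, and the difference was 2.05 ± 0.13 (limma, adjusted p = 5.83e-06), with 505 genes having a higher one. The neighbouring lysozyme gene Lyc2 carries Lyz2 as an older alias, so which of these similar genes the probe set reads is uncertain.

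Cd14, the co-receptor that passes endotoxin to Tlr4, was at 10.62, 10.47, 10.89 and 10.63 on the tumor arrays, against 10.34, 10.16, 9.95 and 10 on the nontumor arrays. Every tumor value was above every nontumor value, and the difference was 0.54 ± 0.12 (limma, adjusted p = 0.00377). C1qa encodes the A chain of C1q, the recognition molecule of the classical complement pathway. It was at 12.42, 12.46, 12.61 and 12.38 on the tumor arrays, against 12.08, 12.38, 11.91 and 11.71 on the nontumor arrays. The lowest tumor and the highest nontumor value were equal at 2 decimals, and the difference was 0.45 ± 0.14 (limma, adjusted p = 0.018).

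C1qb, the B chain of the same molecule and a neighbour of C1qa on chromosome 5, was at 11.64, 11.63, 11.67 and 11.45 on the tumor arrays, against 11.57, 11.92, 11.48 and 11.25 on the nontumor arrays. The groups overlapped, with a difference of 0.04 ± 0.13 (limma, adjusted p = 0.786) that turned to -0.05 after quantile normalization again and to -0.06 after subtraction of array medians. Cd68, a lysosomal membrane protein of phagocytes, was at 11.13, 11.15, 11.47 and 11.10 on the tumor arrays, against 11.04, 11.37, 11.02 and 10.77 on the nontumor arrays. These groups overlapped too, with a difference of 0.16 ± 0.14 (limma, adjusted p = 0.32). Neither gene passed the test, which does not show that they were unchanged.

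**Figure D2:**
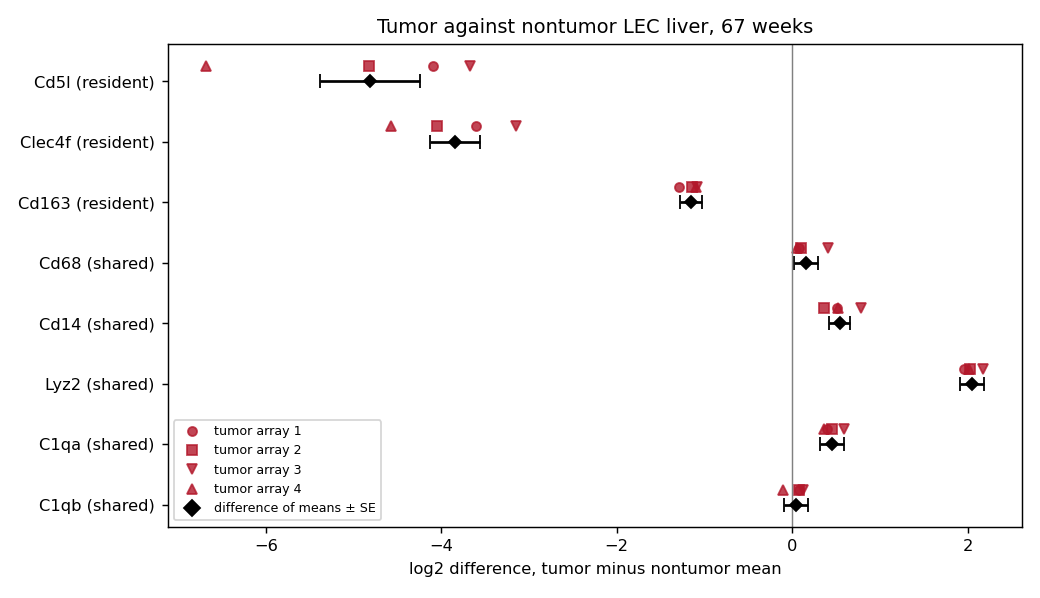
Log2 difference of each tumor array from the mean of the 4 nontumor arrays (symbols) and difference of group means ± SE from limma (diamonds) for the 8 measured markers. The 3 resident genes lie at -4.82, -3.85 and -1.15, and Lyz2 lies at 2.05 with the 4 arrays between 1.96 and 2.18.

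The tumor arrays differed among themselves in Cd5l and Clec4f more than in the other members. The distance from the nontumor mean ran from -6.68 on tumor array 4 to -3.67 on tumor array 3 for Cd5l, and from -4.58 to -3.15 on the same arrays for Clec4f. For both genes array 3 was the highest, followed by 1, 2 and 4. For Cd163 it ran only from -1.29 to -1.08, with array 1 the lowest. Of the 5 shared genes, Cd14 had the widest span, from 0.36 to 0.78.

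Markers of other liver cells also differed between tumor and nontumor liver. The summed linear level of 8 hepatocyte genes (log2 of the sum) was 15.98, 15.33, 16.42 and 14.09 on tumor arrays 1 to 4, against 16.80, 16.80, 16.72 and 16.61 on nontumor arrays 1 to 4. Array 3 was again the highest and array 4 the lowest, the order seen for Cd5l and Clec4f. Of the 8 hepatocyte genes, 6 were lower in tumor and 0 higher (median difference -2.01). Over the alternatives at the same threshold, 3 to 8 were lower. The number was 3 without nontumor array 1, 2 or 3 and 4 without nontumor array 4 or tumor array 2. For sinusoidal endothelial cells, which line the vessels that hold Kupffer cells, 4 of 6 measured markers were lower and 2 higher, and the summed level ranged from 12.10 to 12.47 in tumor and from 12.69 to 13.12 in nontumor liver. Their scavenger receptor Stab2 was lower, at -3.12 ± 0.21 (limma, adjusted p = 7.43e-06), and the related Stab1, which macrophages also express, was higher by 1.29 ± 0.10 (limma, adjusted p = 1.44e-05). All 8 stellate cell and fibroblast markers and all 5 measured bile duct markers were higher. The background for these 4 lists is 38.8% of all genes called higher and 29.2% lower. The summed levels of the stellate cell and bile duct markers ranged from 14.29 to 14.96 and from 14.68 to 14.90 in tumor. In nontumor liver they ranged from 11.92 to 12.39 and from 10.54 to 12.16. The hepatocyte enzyme gene Tat was within the range of absent RNA on 1 tumor array and the fibroblast gene Lum on 3 nontumor arrays, and no other gene of these 4 lists was within it in either group. The part of these cells in the marker differences was not tested.

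**Figure D3:**
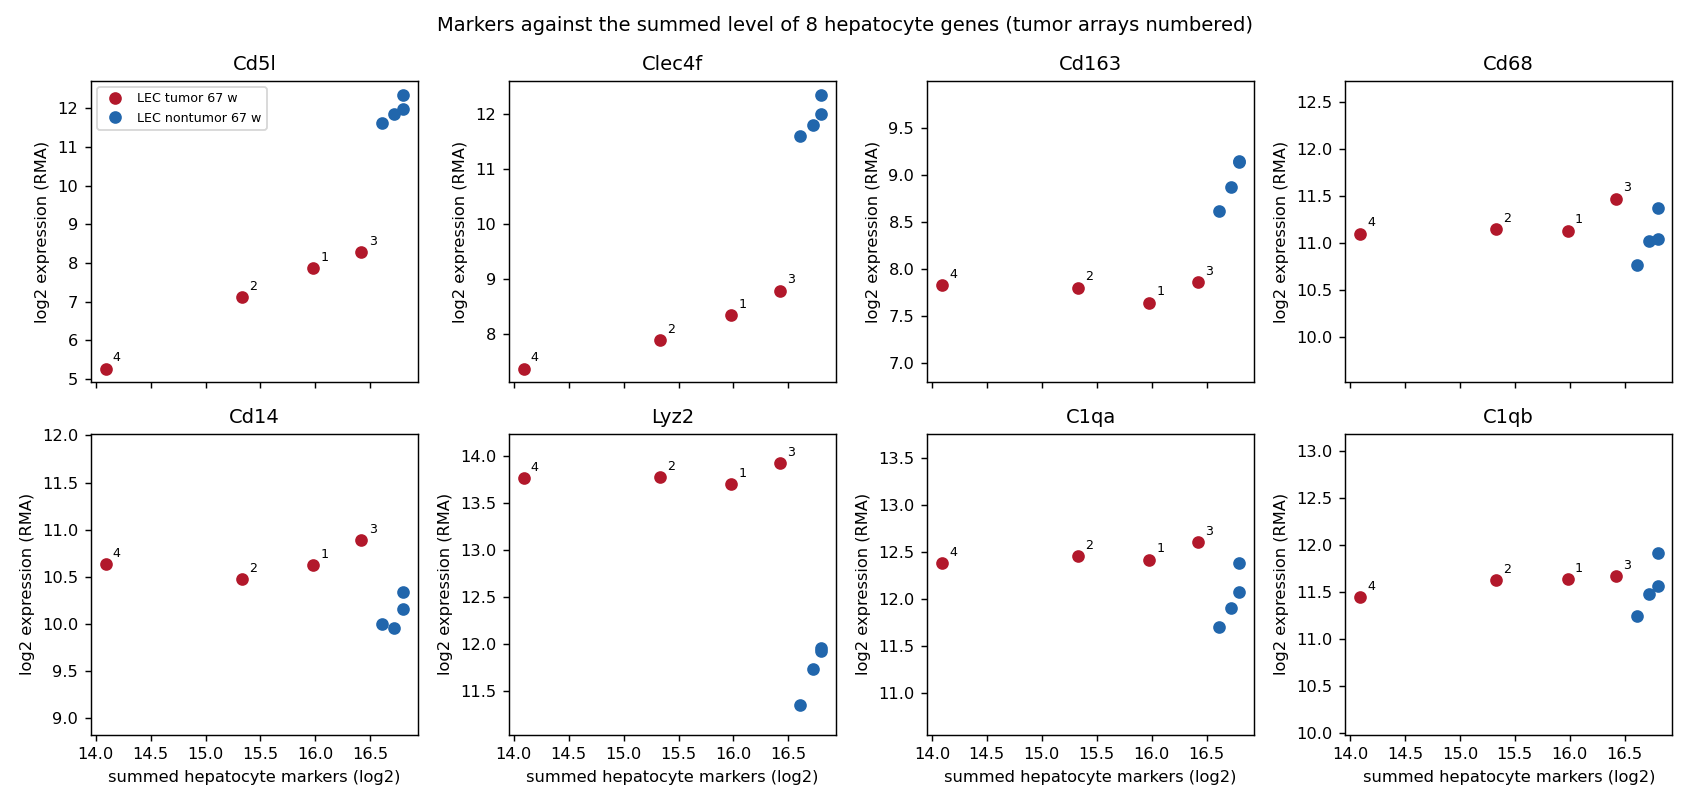
Log2 expression (RMA) of each marker against the log2 of the summed linear level of 8 hepatocyte genes on the 4 tumor arrays (numbered) and the 4 nontumor arrays. Cd5l and Clec4f follow the order of the sum among the tumor arrays (4, 2, 1, 3 from low to high), and all 4 tumor points of both lie below the nontumor points.

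Other genes tied to Kupffer cells were lower in tumor for the most part but not throughout. Of 15 such genes 11 were measured, of which 6 were lower, 3 higher and 2 not called (median -0.78). Among all genes 29.2% were called lower and 38.8% higher. Nr1h3, the oxysterol receptor LXR alpha that in mice helps set Kupffer cell identity, was at 8.20, 7.5, 8.56 and 7.38 on the tumor arrays, against 10.11, 10.24, 10.13 and 10.11 on the nontumor arrays. It too was lowest on tumor array 4 and highest on array 3, and its difference was -2.24 ± 0.24 (limma, adjusted p = 7.82e-05). Hepatocytes express Nr1h3 as well. The complement component C6, which hepatocytes also make, was lower, at -3.01 ± 0.57 (limma, adjusted p = 0.00178). Hmox1, the haem-degrading enzyme of red cell clearance, was lower, at -1.78 ± 0.27 (limma, adjusted p = 5.74e-04). Clec1b lay in the range of absent RNA on all 4 tumor arrays, with a difference of -1.34 ± 0.09 (limma, adjusted p = 5.74e-06). The iron exporter Slc40a1 and the interleukin-18 inhibitor Il18bp were lower, at -0.78 and -0.87. Which cells gave the lower levels, those of Hmox1 and Slc40a1 included, was not tested. The 3 that were higher were Vcam1, Folr2 and Id3. Vcam1, an adhesion molecule that activated endothelium and fibroblasts also carry, was higher by 3.14 ± 0.10 (limma, adjusted p = 5.62e-07), and Folr2, a folate receptor of macrophages, by 0.73 ± 0.18 (limma, adjusted p = 0.00603). The Kupffer cell genes Timd4, Cd38, Slc11a1 and Siglec1 have no probe set listed here.

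Genes of macrophages and myeloid cells in general were mostly higher in tumor. Of 18 genes 17 were measured, with 13 higher, 2 lower and 2 not called (median 0.85; 1 lower without tumor array 2, 3 or 4 or nontumor array 1 or 2), and the summed level ranged from 15.22 to 15.55 in tumor and from 14.38 to 14.95 in nontumor liver. Csf1r, the growth factor receptor on which macrophages depend, was at 11.48, 11.52, 11.44 and 11.36 on the tumor arrays, against 10.83, 11.12, 10.69 and 10.44 on the nontumor arrays. The groups did not overlap, and the difference was 0.68 ± 0.13 (limma, adjusted p = 0.00221). Adgre1, which encodes F4/80, was higher by 1.20 ± 0.27 (limma, adjusted p = 0.00467). The larger differences were those of genes that white blood cells carry in general: Coro1a at 2.47, Lcp1 at 1.83 and Ptprc (CD45) at 1.46. C1qc, the C chain of C1q, did not pass at 0.28 ± 0.14 (limma, adjusted p = 0.111). The 2 lower genes were Lst1 at -0.68 and Mertk, a receptor for the uptake of dying cells, at -0.58. Markers of T, B and NK cells gave 3 higher and 3 lower of 10 measured (median -0.125), shares near those of all genes. The higher ones were Cd3e and Cd3d, subunits of the T cell receptor complex, and Cd4, by 1.45, 1.64 and 0.99. Klrb1a, Nkg7 and Prf1 were lower, at -0.28, -0.23 and -0.37, and Cd8a, Cd2, Ms4a1 and Cd79b were not called. The lower ones were 0 or 1 without tumor array 1, 2 or 4 or nontumor array 2 or 3. Neutrophil markers gave 3 higher and 0 lower of 5. The background for the lists in this paragraph is 38.8% of all genes called higher and 29.2% lower.

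Genes of monocytes and recruited macrophages gave 14 higher, 0 lower and 4 not called among 18 measured of 20 (median 1.41), and 0 to 1 lower over the alternatives. Among all genes 38.8% were called higher and 29.2% lower. Their summed level ranged from 15.25 to 15.55 in tumor and from 13.35 to 13.60 in nontumor liver. A linear sum weighs bright genes most, here Lgals3 (mean 13.10 in tumor), Gpnmb (12.555), Cd9 (12.34) and Cd44 (12.29). Which cells gave it was not tested. Spp1 (osteopontin) was at 10.32, 11.11, 11.79 and 10.42 on the tumor arrays, against 7.24, 7.83, 7.83 and 7.49 on the nontumor arrays. The groups were separate and the difference was 3.31 ± 0.31 (limma, adjusted p = 3.68e-05), but Spp1 is made by bile duct cells too and stands in both lists. Gpnmb, a glycoprotein of lipid-laden macrophages, was higher by 1.40 ± 0.15 (limma, adjusted p = 8.16e-05), and the fractalkine receptor Cx3cr1 by 0.59 ± 0.10 (limma, adjusted p = 0.00122). Mmp12, the macrophage elastase, was higher by 2.92 ± 0.39 (limma, adjusted p = 2.66e-04). Cd9 at 3.6, Cd44 at 3.09, Lpl at 2.93 and S100a4 at 2.90 were also higher, and none of these 4 is restricted to macrophages. The monocyte chemokine receptor Ccr2, at 0.19 ± 0.21 (limma, adjusted p = 0.459), and Trem2, at 0.09 ± 0.11 (limma, adjusted p = 0.48), did not pass.

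**Figure D4:**
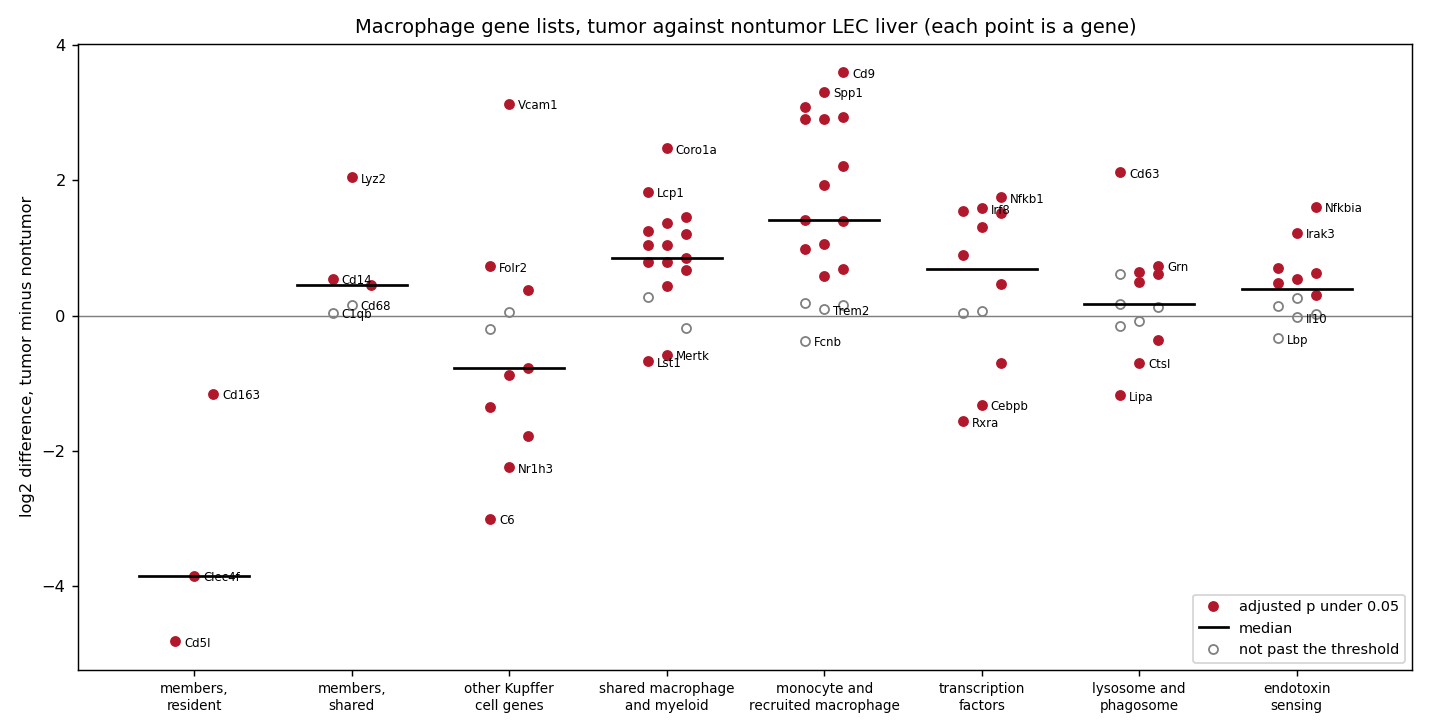
Log2 difference between tumor and nontumor LEC liver for each measured gene of the markers and of 6 macrophage gene lists, with filled points for adjusted p under 0.05 and bars for list medians. The resident markers have a median of -3.85 and the other Kupffer cell genes of -0.78, while the monocyte and recruited macrophage genes have a median of 1.41.

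Among growth factors and chemokines that feed or draw macrophages, 6 of 13 measured genes were higher and 2 lower. Of all genes, 38.8% were called higher and 29.2% lower. Ccl2, which draws monocytes through Ccr2, was at 10.66, 11.03, 11.61 and 11.01 on the tumor arrays, against 6.29, 7.44, 7.61 and 7.23 on the nontumor arrays. The groups were separate, with a difference of 3.93 ± 0.30 (limma, adjusted p = 1.28e-05). Of the ligands of Csf1r, Il34 was higher by 1.49 ± 0.11 (limma, adjusted p = 1.36e-05), while Csf1 was at 0.02 ± 0.07 (limma, adjusted p = 0.777). The fractalkine gene Cx3cl1 was higher by 2.55, Cxcl12 by 1.47 and Tgfb1 by 1.31, and Csf2 and Ccl5 were lower, at -0.43 and -0.50.

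Macrophage transcription factors gave 7 higher and 3 lower of 12. The background for each list in this paragraph is 38.8% of all genes called higher and 29.2% lower. Nfkb1 at 1.75, Irf8 at 1.59 and Rbpj, the Notch effector, at 1.54 were higher, and Rxra, the partner of LXR alpha, was lower at -1.56, as was Cebpb at -1.31. Which cells gave these differences was not tested. Maf was at 0.04 ± 0.20 (limma, adjusted p = 0.863), and Spi1, the gene of PU.1, has no probe set listed here. Of 13 lysosome and phagosome genes, 5 were higher and 3 lower, shares near this background. They were led by Cd63 at 2.12 and by Lipa, the lysosomal acid lipase, at -1.17. Of 12 endotoxin sensing genes, 7 were higher and 0 lower, and over the alternatives at the same threshold 4 to 8 were higher and 0 to 1 lower, with the 4 where dim probe sets were left out. At 2-fold or more, 2 were higher. Tlr4 was higher by 0.63 ± 0.17 (limma, adjusted p = 0.0114), the feedback inhibitors Nfkbia and Irak3 by 1.61 and 1.23, and Il1b by 0.70 with overlapping groups. Il6, also among the 7, was within the range of absent RNA on all 8 arrays.

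Between nontumor LEC liver and LEA liver at 67 weeks, no member was called: 0 of 8 in either direction, against 0.563% of all genes (0.232% higher and 0.331% lower). By unadjusted p under 0.05, 2 of the 8 passed, against 12.4% of all genes. Cd5l averaged 11.95 in LEC nontumor liver and was 11.80 in LEA liver, Clec4f was 11.94 against 12.09, and Cd163 was 8.94 against 9.36. The LEA values of Cd5l and Clec4f lay inside the range of the 4 nontumor arrays, and that of Cd163 lay above it. The differences were 0.15 ± 0.90 for Cd5l, -0.15 ± 0.46 for Clec4f and -0.42 ± 0.20 for Cd163, with adjusted p from limma of 0.966, 0.929 and 0.441. Lyz2 averaged 11.74 in LEC nontumor liver and was 11.85 in LEA liver, a difference of -0.11 ± 0.21 that turned to 0.01 without nontumor array 4. The 2 with unadjusted p under 0.05 were Cd14 and C1qb. Cd14 was at 11.18 in LEA liver, above all 4 nontumor arrays, with a difference of -1.07 ± 0.19 (limma, adjusted p = 0.053). Its side of the threshold depended on single arrays: the adjusted p was 0.0397 without tumor array 3, 0.0334 without nontumor array 1 and 0.0369 with array weights. C1qb was at 10.92 in LEA liver, below all 4 nontumor arrays, with a difference of 0.63 ± 0.21 (limma, adjusted p = 0.284). LEA is 1 array, assumed to vary like the replicated groups.

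Of 96 genes measured in the 7 macrophage lists, limma called 0 in either direction between nontumor LEC and LEA liver, 12 had an unadjusted p under 0.05, a share near the 12.4% of all genes, and the list medians lay between -0.22 for the transcription factors and 0.16 for the recruited macrophage genes. Col1a1 and Col3a1, collagens of activated stellate cells, were higher in nontumor LEC liver by 2.10 ± 0.35 and 1.36 ± 0.21 (limma, adjusted p = 0.0455 and 0.0369), but 0 of these 8 stellate cell markers were called without tumor array 1 or 2 or nontumor array 2 or 3.

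At 4, 26 and 39 weeks Cd5l was at 11.47, 11.44 and 11.59, Clec4f at 11.15, 11.57 and 11.44, and Cd163 at 8.72, 9.12 and 8.72, each from 1 array. The nontumor means at 67 weeks were 11.95, 11.94 and 8.94, and none of the 3 genes differed by 2-fold between any 2 ages in LEC liver outside the tumors. For Cd5l and Clec4f the mean at 67 weeks was the highest of the 4 ages, and the 4-week value lay below all 4 nontumor arrays. Lyz2 was at 10.68, 11.81 and 12.11, with 11.74 at 67 weeks, so the value at 4 weeks was the lowest of all 12 arrays. Cd14 had the opposite order of its first and last pools, at 11.35, 10.24 and 9.88, with 10.11 at 67 weeks, and its value at 4 weeks was the highest of all 12 arrays.

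Cd68 was at 10.16, 10.69 and 10.73 at 4, 26 and 39 weeks, C1qa at 11.15, 11.52 and 11.51, and C1qb at 10.69, 10.97 and 11. For these 3 genes too the nontumor mean at 67 weeks, at 11.05, 12.02 and 11.55, was the highest of the 4 ages. Their 4-week values lay below all 4 nontumor arrays.

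Set against 4 weeks, Lyz2 was 2-fold or more higher and Cd14 2-fold or more lower on the arrays labelled 26 weeks (1.13 and -1.11) and 39 weeks (1.43 and -1.48). These were 2 of the 8 members each time, 1 higher and 1 lower. Of all genes, 3.13% were past 2-fold at 26 weeks (2.57% higher and 0.563% lower) and 3.06% at 39 weeks (2.51% higher and 0.549% lower). With 1 array an age there is no replicate check, and both contrasts cross the divide in Xist and Eif2s3y. Between 39 and 26 weeks 0 of 8 members were past 2-fold, against 0.211% of all genes (0.0774% higher and 0.134% lower), with Cd163 at -0.40 the farthest from 0. The 3 comparisons share arrays.

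Between LEC nontumor liver at 67 weeks and LEC liver at 4 weeks, which lie on the same side of that divide, 1 of 8 members was called, 0 higher and 1 lower, against 0.464% of all genes (0.232% higher and 0.232% lower). Cd14 was lower at 67 weeks, with a difference of -1.24 ± 0.19 (limma, adjusted p = 0.0387). This call was lost without tumor array 1, 2 or 4 or nontumor array 2, 3 or 4 (adjusted p from 0.0506 to 0.0953) and when the fit held only these groups (0.206). Lyz2 had a difference of 1.06 ± 0.21 (limma, adjusted p = 0.0838), and was called without nontumor array 4 at 0.0198. Cd68 at 0.89 ± 0.21, C1qa at 0.87 ± 0.22 and C1qb at 0.86 ± 0.21 did not pass, with adjusted p from limma of 0.136, 0.143 and 0.143. By unadjusted p under 0.05, 5 of the 8 passed, against 13.5% of all genes. For the resident genes the differences were 0.48 ± 0.90 for Cd5l, 0.80 ± 0.46 for Clec4f and 0.22 ± 0.20 for Cd163, with adjusted p from limma of 0.88, 0.51 and 0.709. The comparisons with LEA, with 4 weeks and with tumor share the nontumor arrays. Against 4 weeks, the median differences of the 7 macrophage lists lay between 0.017 for the growth factors and chemokines and 0.459 for the shared genes. The median of all genes was -0.001. Among the other macrophage lists, the lysosomal protease Lgmn alone was called, higher by 0.80 ± 0.13 (limma, adjusted p = 0.0442), and this call was lost when any 1 of the 8 tumor and nontumor arrays was left out.

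Ranked by level, Cd5l ran from nontumor liver (mean 11.95) through LEA (11.80), 39 weeks (11.59), 4 weeks (11.47) and 26 weeks (11.44) to tumor (7.13). The first 5 lay within 1 log2 unit, and only the step to tumor was larger than the range of the 4 arrays of a group. Clec4f had LEA first (12.09), then nontumor (11.94), 26 weeks (11.57), 39 weeks (11.44), 4 weeks (11.15) and tumor (8.10), with the same single step. Cd163 had LEA first (9.36), then 26 weeks (9.12), nontumor (8.94), 4 and 39 weeks (8.72 each) and tumor (7.78). Lyz2 had tumor first (13.79), then 39 weeks (12.11), LEA (11.85), 26 weeks (11.81), nontumor (11.74) and 4 weeks (10.68), and LEA and 26 weeks lay inside the nontumor range. For C1qa, Cd68 and C1qb tumor (12.47, 11.21 and 11.60) came first, then nontumor (12.02, 11.05 and 11.55), with LEA and the 26- and 39-week pools next and 4 weeks (11.15, 10.16 and 10.69) last. Tumor and nontumor did not pass the test of their difference for Cd68 and C1qb, and the order of this pair for C1qb turned under other scalings. For Cd14, 4 weeks (11.35) and LEA (11.18) stood above tumor (10.65), followed by 26 weeks (10.24), nontumor (10.11) and 39 weeks (9.88).

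The genes whose levels were most like a marker's over the 12 arrays were found by Pearson's r among 7108 genes above the median level. For Clec4f they were Rarres1 (0.992), Tm6sf2 (0.991), Rpp21 (0.990), Nr1h3 (0.990) and Urah (0.989), with tumor differences between -2.31 and -1.84. For C1qa they were Axl (0.982), C1qc (0.981), Ctss (0.967), Dhx36 (0.960) and Ctnnb1 (0.953), with tumor differences between 0.28 and 0.66. Axl is a receptor for the uptake of dying cells, and Ctss is a cathepsin of antigen-presenting cells. Nr1h3 is also expressed by hepatocytes. Likeness over these arrays does not place a gene in a cell type. The 12 points share groups, and for Clec4f the 4 tumor arrays stand apart from the other 8.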

How the data were processed

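The authors deposited 1 table of log2 expression values; per the submitters' processing notes these come from RMA under R 2.6.1, a method that corrects background, quantile-normalizes and combines the probes of a set. The sources do not say whether the 12 arrays were normalized as 1 batch. Per the labels' protocols, 3 µg of total RNA was labelled with biotin. Of 31099 probe sets, 57 controls were left out, and the annotation gave 20826 of the rest a single gene. Group means over all 12 arrays were fitted with limma 3.58.1 (lmFit and eBayes, R 4.3.3), with 6 residual and 2.84 prior degrees of freedom, lending the spread of the replicated groups to each lone array. Arrays have no counted depth, and their number limits the precision. The probe sets for absent bacterial RNA numbered 27. Named genes were the members, 14 fixed macrophage genes, up to 4 called genes of each of 13 lists, and the 5 most like Clec4f and C1qa; other genes in the text were picked with their values in view. The members and lists were chosen with earlier results of these data known. Alternatives covered normalization, filters, threshold, prior, weights, probe set choice, spread, replicates and pairing. Promoters came from RefSeq (GRCr8). Figures were drawn with matplotlib 3.10.9.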

Additional observations from a re-analysis of the deposited data

Results flagged for a closer look

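Among 176 groups of 4 arrays examined, 9 had an array whose gap to its nearest neighbour, as a share of the whole range, was above Dixon's critical value, and chance gives about 1 in 20. Of the markers, Cd68 was highest on tumor array 3, at 11.47 with 11.15 next (share 0.875), and C1qb was lowest on tumor array 4, at 11.45 with 11.63 next (0.832). Tumor array 3 was also the highest tumor array for the neutrophil genes Csf3r (8.24, next 7.11, share 0.929) and S100a9 (11.48, next 10.59, 0.861) and for the summed T, B and NK cell markers (11.55, next 11.36, 0.864). In nontumor liver, Laptm5 was highest on array 2 (10.79, next 10.43, 0.894), Nfkbia was highest on array 3 (10.43, next 10.11, 0.84) and Cd3e was lowest on array 1 (7.76, next 7.92, 0.877). The summed monocyte and recruited macrophage genes were lowest on nontumor array 4 (13.35, next 13.56, 0.84).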

How the results depend on the processing

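In tumor against nontumor liver, the alternatives kept the direction and the side of the threshold of Cd5l (-5.20 to -3.65), Clec4f (-4.08 to -3.60), Cd163 (-1.37 to -1.08) and Lyz2 (1.92 to 2.12). The 3 members called higher became 1 at 2-fold or more, since Cd14 (0.54) and C1qa (0.45) lie below it. C1qb, not called, turned to -0.053 after quantile normalization again, -0.059 after subtraction of array medians and -0.058 without nontumor array 4 (up to 0.166 without nontumor array 2). Subtracting array medians moved the median of all probe sets in this comparison to -0.14, against -0.04 as deposited. No called gene of any list changed sign under any alternative run. In LEC nontumor against LEA, members called lower went to 1 (Cd14) with array weights, and ranged from 0 to 1 with a replicate left out; Lyz2 turned to 0.014 without nontumor array 4 (and was -0.187 without nontumor array 2). In LEC nontumor at 67 weeks against 4 weeks, members called higher numbered 2 after quantile normalization again and 4 with array weights, and 0 to 1 with a replicate left out. Members called lower numbered 0 when only the groups compared were fitted, and 0 to 1 with a replicate left out. The causes were not tested. The title number as a replicate block left 3 members higher and 3 lower in tumor. Same-numbered arrays had deviations correlated at 0.054, 0.142, -0.082 and 0.142, not every one over 0.1, and the samples were treated as unpaired. Between differently numbered arrays the correlations ran from -0.144 to 0.108, so 0.142 was the highest value of all. These values cannot show that the specimens were unpaired, since the sources do not say which arrays match. The single arrays limit the comparisons with LEA and across ages.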

Other observations

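The neutrophil calprotectin genes S100a8 and S100a9 differed between 67 and 4 weeks in LEC liver by more than any of the 8 measured markers. S100a8 was at 5.70, 6.2 and 6.07 in LEC liver at 4, 26 and 39 weeks, no brighter than control probe sets for absent bacterial RNA, and at 8.53, 9.31, 9.0 and 8.40 on the nontumor arrays at 67 weeks. S100a9 was at 6.78, 7.13 and 6.94 at 4, 26 and 39 weeks and at 9.81, 10.48, 10.16 and 9.73 on the nontumor arrays. Against 4 weeks the differences at 67 weeks were 3.11 ± 0.46 for S100a8 and 3.27 ± 0.40 for S100a9 (limma, adjusted p = 0.0371 and 0.0173). LEA liver at 67 weeks had 7.84 and 9.03, lower than every nontumor array, though these differences did not pass (limma, adjusted p = 0.442 and 0.348). The call of S100a9 was lost without tumor array 1 or nontumor array 3, and that of S100a8 without tumor array 1, 2 or 4 or nontumor array 2 or 3, and both were lost when the fit held only the nontumor and 4-week arrays.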
